A study of Mus musculus with 8 samples.

Results

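The regions described are stretches of the mouse genome where a peak of histone H3 trimethylated at lysine 27 (H3K27me3) was called in chondrocytes lacking Utx and in chondrocytes lacking Jmjd3, and in neither wild-type nor Ezh2-deleted chondrocytes. They were chosen by peak presence alone: Utx-cKO peaks that overlap a Jmjd3-cKO peak by at least 1 bp and overlap no wild-type or Ezh2-cKO peak. Of 49405 Utx-cKO peaks, 1550 (3.14%) met this rule, and together they cover 1316 kb. They overlap 1548 distinct Jmjd3-cKO peaks, 5.73% of the 27013 peaks of that list.

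Trimethylation of lysine 27 is written by Polycomb repressive complex 2, whose catalytic subunit is Ezh2, and is associated with silencing of developmental genes. Utx (Kdm6a) and Jmjd3 (Kdm6b) are demethylases that remove it. Hox genes and transcription factors of other lineages are classical carriers of the mark, mostly at promoters rich in CpG dinucleotides.

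The chondrocytes came from mouse cartilage and were grown in medium with serum. The 4 genotypes were wild type, Utx-cKO, Jmjd3-cKO and Ezh2-cKO, each with 1 ChIP library and 1 input library, so no difference between genotypes has a replicate check and no test between them was made. The labels write the last pair as Jmjd3-Cko and Ezh2-Cko, and no source used here gives the Cre driver, the age of the animals or the number of animals behind a library. The Utx-cKO and Jmjd3-cKO library titles share a prefix that differs from those of wild type and of Ezh2-cKO. What that prefix stands for is not stated, and it cannot be told apart from loss of a demethylase.

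The 4 ChIP libraries held between 25655346 fragments (Jmjd3-cKO) and 34786292 fragments (Ezh2-cKO) after removal of duplicates, with 34359111 in Utx-cKO and 29222251 in wild type. The peak lists differed in length, with 49405 peaks for Utx-cKO, followed by Ezh2-cKO with 33739, wild type with 28057 and Jmjd3-cKO with 27013. A region is absent from a list when no peak passed the q threshold of 0.05 there. The wild-type signal below that threshold was not analysed here, and in libraries made from many cells, a mark in more cells and more mark per cell cannot be told apart. The chondrocyte markers Sox9, Col2a1, Acan, Col9a1, Matn1 and Comp all had a wild-type peak within 2 kb of a gene end, against 62.3% of all protein-coding genes. So did 29 of 30 housekeeping genes, but only 2 of 18 myogenic and 2 of 20 germline genes. Frequent peaks at housekeeping and chondrocyte marker genes are unlike the silencing of developmental genes that H3K27me3 is associated with. The reason was not tested, nor was the identity of the mark in these libraries. A peak in these lists is therefore not read here as a silenced gene. None of the defining markers of chondrocytes (6), osteoblasts (4), endothelial cells (4), blood cells (4) or muscle (3) had a shared region at an end, against 1.07% of all protein-coding genes. At that share, a count of 0 does not set so few markers apart. Ptprc, a blood cell phosphatase, was the only marker of these with a region over the gene, against 4.04% of all genes.

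Where the regions met gene starts, the DNA under them can be shown. Promoters here are RefSeq windows of 300 bp on GRCm38.p6, from 250 bp before a transcription start to 50 bp after it. Of the members, 90 overlapped such a window, covering 103 promoters of 96 genes, 65 of them promoters of protein-coding genes and 38 of long non-coding RNAs. The 6 printed belong to fixed gene lists and differ in CpG content, but the members' most CpG-rich promoters are not among them. Each CpG is in capitals and all other bases are in lower case, 5′ to 3′. They are Tlx1 (chr19:45150465-45150764, plus strand), a homeobox factor needed for the spleen, Eomes (chr9:118477939-118478238, plus strand), a T-box factor of early mesoderm, Gfi1 (chr5:107725756-107726055, minus strand), a zinc finger repressor of blood cells, Crabp1 (chr9:54764498-54764797, plus strand), which binds retinoic acid in the cytosol, the internal start of Cdkn2a (chr4:89282143-89282442, minus strand), a cell cycle inhibitor gene, and Kcnn4 (chr7:24370013-24370312, plus strand), a calcium-activated potassium channel.
Tlx1 promoter: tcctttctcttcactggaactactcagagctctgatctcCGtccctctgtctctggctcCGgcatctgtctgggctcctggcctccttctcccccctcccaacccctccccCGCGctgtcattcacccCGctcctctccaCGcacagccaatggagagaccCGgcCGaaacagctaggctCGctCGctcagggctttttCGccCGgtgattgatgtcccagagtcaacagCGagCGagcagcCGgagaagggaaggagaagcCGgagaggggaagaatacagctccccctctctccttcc
Eomes promoter: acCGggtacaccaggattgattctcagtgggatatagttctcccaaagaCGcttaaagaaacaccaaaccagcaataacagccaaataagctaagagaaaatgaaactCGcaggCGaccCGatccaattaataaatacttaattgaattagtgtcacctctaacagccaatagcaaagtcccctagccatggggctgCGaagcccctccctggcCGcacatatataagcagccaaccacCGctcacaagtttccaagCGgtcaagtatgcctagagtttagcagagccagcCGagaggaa
Gfi1 promoter: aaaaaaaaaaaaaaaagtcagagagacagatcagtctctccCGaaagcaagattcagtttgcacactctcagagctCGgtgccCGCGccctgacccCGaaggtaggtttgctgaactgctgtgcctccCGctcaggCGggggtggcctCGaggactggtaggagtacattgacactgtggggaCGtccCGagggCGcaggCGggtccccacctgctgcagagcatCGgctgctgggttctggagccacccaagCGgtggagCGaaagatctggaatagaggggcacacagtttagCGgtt
Crabp1 promoter: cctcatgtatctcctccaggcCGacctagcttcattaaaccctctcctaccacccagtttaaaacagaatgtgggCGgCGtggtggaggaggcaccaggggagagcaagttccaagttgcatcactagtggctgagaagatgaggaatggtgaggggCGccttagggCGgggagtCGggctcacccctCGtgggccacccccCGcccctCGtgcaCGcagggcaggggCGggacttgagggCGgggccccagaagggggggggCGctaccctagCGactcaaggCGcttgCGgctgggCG
Cdkn2a promoter: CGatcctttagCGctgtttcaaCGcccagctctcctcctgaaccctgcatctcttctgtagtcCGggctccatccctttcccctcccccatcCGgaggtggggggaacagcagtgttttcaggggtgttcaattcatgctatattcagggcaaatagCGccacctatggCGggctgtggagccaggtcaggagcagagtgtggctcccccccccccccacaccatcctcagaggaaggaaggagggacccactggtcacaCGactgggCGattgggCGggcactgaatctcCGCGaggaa
Kcnn4 promoter: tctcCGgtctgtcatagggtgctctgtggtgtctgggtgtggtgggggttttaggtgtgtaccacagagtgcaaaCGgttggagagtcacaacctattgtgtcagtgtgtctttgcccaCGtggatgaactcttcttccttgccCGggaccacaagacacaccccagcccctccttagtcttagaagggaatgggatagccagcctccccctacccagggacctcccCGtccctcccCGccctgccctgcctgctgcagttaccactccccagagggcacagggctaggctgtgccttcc

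CpG number in these windows ran from 17 in Crabp1, 16 in Tlx1 and 16 in Gfi1 to 12 in Cdkn2a, 10 in Eomes and 6 in Kcnn4. The CpG observed over expected ratio, which corrects the CpG number for base composition, was 0.641 in Gfi1, 0.607 in Eomes, 0.593 in Tlx1, 0.543 in Crabp1, 0.442 in Cdkn2a and 0.226 in Kcnn4. The whole window lay inside the region for Eomes, Gfi1, Cdkn2a and Kcnn4, while the region covered 291 bp of the Tlx1 window and 124 bp of that of Crabp1.

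Over all 103 promoters the median ratio was 0.471, between 0.268 for promoters under Utx-cKO peaks found in no other list and 0.773 for those under peaks found in all 4 lists. A ratio of at least 0.6 was met by 31 promoters, 30.1% (95% Wilson interval 22.1 to 39.5%). The corresponding share was 7.75% (5.72 to 10.4%) of 503 promoters under peaks of Utx-cKO alone and 11.6% (8.16 to 16.3%) of 241 under peaks of Utx-cKO and Ezh2-cKO only. It was 32.9% (27.2 to 39.2%) of 234 promoters under peaks of all 3 knockouts without wild type and 35.8% of all 32851 promoters. Promoters under the shared regions were thus richer in CpG than those under Utx-cKO peaks found alone or with Ezh2-cKO, by more than the counting error, and the interval overlapped that of peaks of all 3 knockouts. It also contained the share of all promoters. Gene type was not matched between these sets. Protein-coding promoters were 65 of the 103, against 259 of 503 for Utx-cKO alone and 139 of 241 with Ezh2-cKO only. They were 171 of 234 for all 3 knockouts. Peaks shared with Ezh2-cKO only had the same median fold enrichment as the members, 2.85, and a longer median length, 801 bp against 651 bp. Wilson intervals cover counting error only, and promoters under the same region share sequence.

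**Figure D1:**
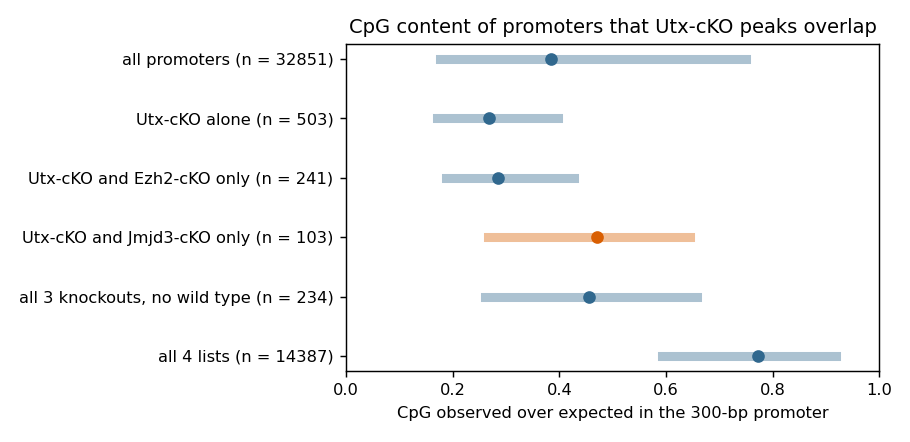
CpG observed over expected in 300-bp promoters overlapped by Utx-cKO peaks, split by the lists a peak is shared with. Points are medians and thick lines run from the lower to the upper quartile; the median of the shared regions (0.471, orange) lies above those of Utx-cKO alone (0.268) and Utx-cKO with Ezh2-cKO (0.284) and below that of all 4 lists (0.773).

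As peaks, the members were weak. Fold enrichment compares a peak with the input library of its genotype, as the authors computed it, and it is given as a description because it comes from the calls that chose the regions. In Utx-cKO it ran from 2.26 to 5.15 with a median of 2.85 (quartiles 2.67 and 3.09). In the overlapping Jmjd3-cKO peaks it ran from 2.07 to 23.1 with a median of 2.73 (quartiles 2.54 and 2.97). The median member ranked at percentile 38.6 of the Utx-cKO list, and its Jmjd3-cKO partner at percentile 17.5 of the shorter Jmjd3-cKO list. Fold enrichment reached 3 in 500 regions in Utx-cKO, in 358 in Jmjd3-cKO and in both for 139 (8.97%). It reached 4 in both for only 2 regions.

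Across the 1550 regions, the fold enrichments of a Utx-cKO peak and its Jmjd3-cKO partner hardly moved together, with Pearson's r of 0.0572 on log2 values and Spearman's rho of 0.0341. The points share the peak threshold, which bounds both values from below. The Jmjd3-cKO peak had fold enrichment of at least 5 in 15 regions. The median length of those 15 Jmjd3-cKO peaks was 4497 bp, and 13 of them overlapped a wild-type or Ezh2-cKO peak elsewhere along their length. Such partners occurred for 74 of the 1550 members, and 1476 regions remained without them.

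**Figure D2:**
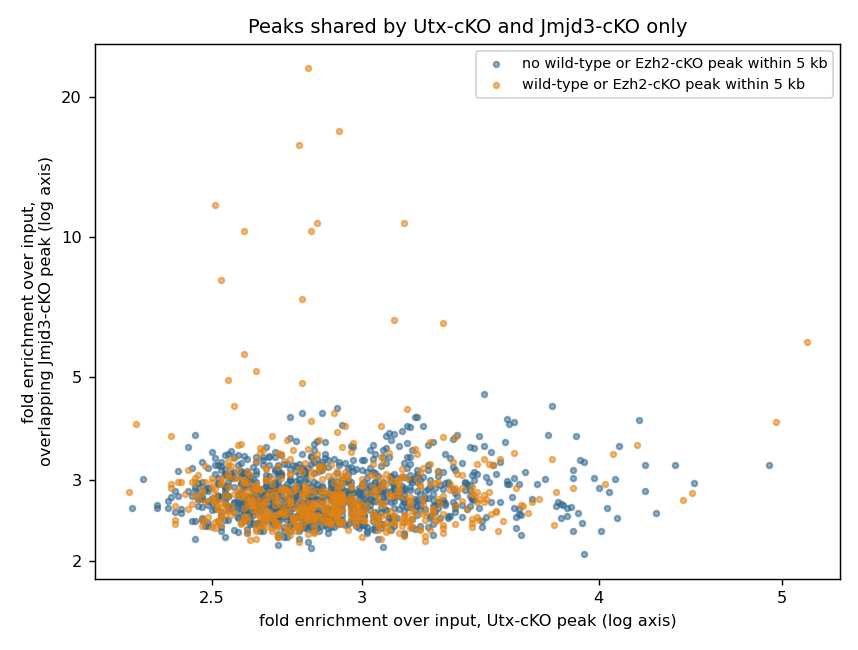
Fold enrichment over input of each of the 1550 regions in Utx-cKO (x axis) and of the overlapping Jmjd3-cKO peak (y axis), both on log axes. Orange points have a wild-type or Ezh2-cKO peak within 5 kb; most points lie below 4 on both axes, and the few high Jmjd3-cKO values reach 23.1 at Utx-cKO values near the median.

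The median Utx-cKO peak was 651 bp long (quartiles 397 and 1070 bp, range 223 to 5107 bp), and the median Jmjd3-cKO partner 466 bp. They shared a median of 326 bp, and in 1343 regions (86.6%) the overlap was at least 50% of the shorter peak. For comparison, Utx-cKO peaks found in no other list had a median length of 524 bp and a median fold enrichment of 2.71, those also in all 3 knockouts without wild type 905 bp and 3.05, and those in all 4 lists 1995 bp and 6.59.

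At the edge of the rule the members look like their excluded neighbours. The smallest overlap with a Jmjd3-cKO peak was 3 bp, inside Foxo3, where fold enrichment was 2.88 in Utx-cKO and 2.49 in Jmjd3-cKO. A Utx-cKO peak on chromosome 4 that stopped 3 bp short of a Jmjd3-cKO peak was left out, with fold enrichment of 2.51. The closest wild-type peak to a member was 3 bp away, beside a region nearest to Klf14 with fold enrichment of 2.52. A Utx-cKO peak on chromosome 3 that shared 3 bp with a wild-type or Ezh2-cKO peak was left out, with fold enrichment of 2.75.

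The regions lay at very different distances from the peaks of the other lists. The median distance to the nearest wild-type peak was 11498 bp, and to the nearest wild-type or Ezh2-cKO peak 7804 bp (quartiles 2805 and 21186 bp). The latter median was 7049 bp for peaks of Utx-cKO alone. A wild-type or Ezh2-cKO peak lay within 1 kb of 113 members (7.29%, 6.10 to 8.69%) and within 5 kb of 602 (38.8%, 36.4 to 41.3%), while 65 (4.19%, 3.30 to 5.31%) had none within 100 kb. The share beyond 100 kb was 2.78% (2.55 to 3.03%) for peaks of Utx-cKO alone.

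Seen from either list, sharing between the demethylase knockouts alone was not the most frequent pattern. Of the Utx-cKO peaks without a wild-type peak, 17795 were in no other list, 4428 were shared with Ezh2-cKO only, 2013 with both Ezh2-cKO and Jmjd3-cKO, and 1550 with Jmjd3-cKO only. The Ezh2-cKO list is longer than the Jmjd3-cKO list, and the part of that in this order was not tested. From the Jmjd3-cKO side, 19450 of 27013 peaks (72.0%) were in all 4 lists, 2190 (8.11%, 7.79 to 8.44%) were shared with Utx-cKO and Ezh2-cKO without wild type, and 1677 (6.21%) were in no other list. There, 1707 peaks (6.32%, 6.04 to 6.62%) were shared with Utx-cKO only, against 374 (1.38%) with Ezh2-cKO only and 369 (1.37%) with wild type only. Utx-cKO has the longest list, and the part of that in this difference was not tested.

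With respect to protein-coding genes the regions were mostly distal. Their centre lay within 2 kb of a gene end in 163 (10.5%, 9.09 to 12.1%), elsewhere inside a gene in 846 (54.6%, 52.1 to 57.0%) and outside genes in 541 (34.9%, 32.6 to 37.3%). The share at gene ends was 10.9% (10.4 to 11.3%) for peaks of Utx-cKO alone, 13.4% (12.4 to 14.4%) for those shared with Ezh2-cKO only and 16.8% (15.3 to 18.5%) for those in all 3 knockouts, and 57.6% in all 4 lists. The interval of the members contained the share of Utx-cKO alone and lay below that of peaks in all 3 knockouts. For peaks shared with wild type only the share was 8.45% (7.17 to 9.93%), an interval that overlapped that of the members. On the narrower promoter windows, 6.02% (4.92 to 7.34%) of members overlapped one, above the 2.59% (2.37 to 2.84%) of Utx-cKO alone and below the 10.3% (9.05 to 11.7%) of all 3 knockouts. It was 4.85% (4.25 to 5.54%) for peaks shared with Ezh2-cKO only and 3.91% (3.04 to 5.01%) with wild type only. Both of these intervals overlapped that of the members.

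**Figure D3:**
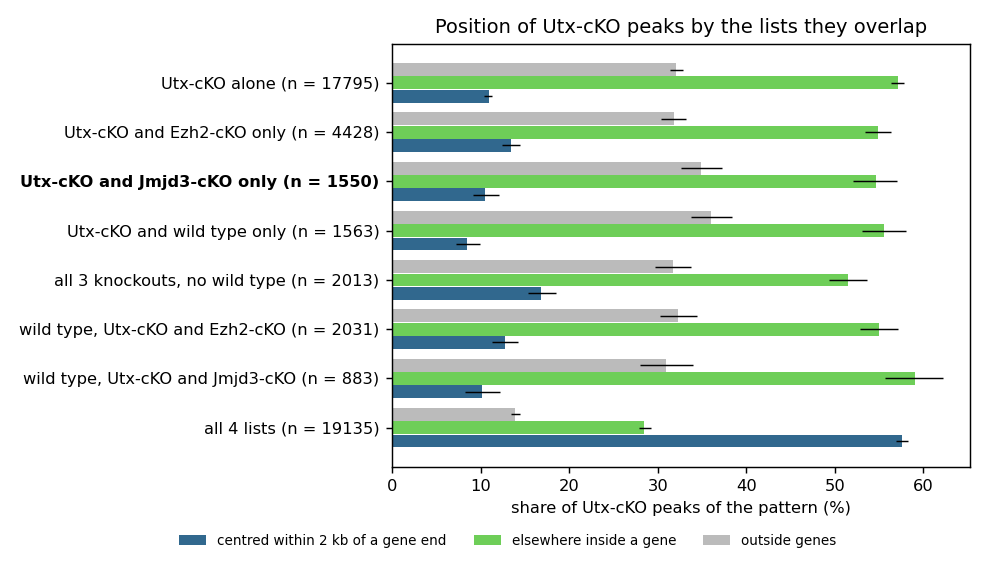
Share of Utx-cKO peaks centred within 2 kb of a protein-coding gene end (blue), elsewhere inside a gene (green) or outside genes (grey), by the lists a peak overlaps, with 95% Wilson intervals. Peaks on unplaced scaffolds are not counted; the shared regions (bold) have 10.5% at gene ends, against 57.6% of peaks in all 4 lists.

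Regions inside genes fell mainly in genes that had a wild-type peak at an end. This held for 739 of 846 (87.4%, 84.9 to 89.4%), close to 87.6% (86.9 to 88.2%) for peaks of Utx-cKO alone. The median host gene of the members was 114.5 kb long. It was 81.8 kb for Utx-cKO alone, 77.8 kb for peaks shared with Ezh2-cKO only and 96.6 kb for all 3 knockouts. The median over all genes was 17.2 kb, but long genes hold more bases, so regions inside genes favour them by construction. Itsn1, an endocytic scaffold gene, the teneurin genes Tenm2 and Tenm4 and the oxidoreductase gene Wwox held 4 regions each, with Utx-cKO fold enrichment between 2.59 and 3.63.

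Of the 10 regions with the highest fold enrichment in both knockouts, 6 lay outside genes, and they were 325 to 1532 bp long. At Pik3c3, the catalytic subunit of the class III phosphoinositide 3-kinase, a region of 1532 bp had 5.15 in Utx-cKO and 5.95 in Jmjd3-cKO. Next came regions that lay outside genes: 139351 bp from Sntb1 (4.20 and 4.03), 55426 bp from Cux1 (4.96 and 3.99), 11702 bp from Cct8 (3.78 and 4.32) and 340223 bp from Gpat3 (3.76 and 3.74). At Tmem54, a membrane protein gene, the region had 3.89 in Utx-cKO and 3.72 in Jmjd3-cKO. Another 4 of the top 10 lay near Eif1a and Ap3b1, inside Cc2d2b and at the end of Espn, an actin-bundling gene of hair cells. Fold enrichment was higher in Utx-cKO than in Jmjd3-cKO in 4 of these 10 regions.

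The 10 longest regions had fold enrichment in Utx-cKO between 2.38 and 3.22, around the median of all members. A region of 5107 bp lay 11202 bp from Meox1, a homeobox gene of the somites, with 2.83 in Utx-cKO and 2.62 in Jmjd3-cKO. Another of 5057 bp lay inside Rxra, a retinoid receptor gene, with 3.06 and 2.34. In both, the Jmjd3-cKO peak was far shorter, at 499 and 618 bp.

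Some regions lay close together. No such count was made for other Utx-cKO peaks, so grouping is not read as a trait of the members. There were 4 within 100 kb at Bcl2l1, Cox4i2 and Id1 on chromosome 2, an apoptosis inhibitor, a respiratory chain subunit and a BMP-responsive helix-loop-helix gene. Another 4 lay at Cdk5rap3, Prr15l and Sp2 on chromosome 11. A further 4 lay at chr2:167729036-167828420 and 4 at chr17:45791884-45852868, with no protein-coding gene across them. The first stretch with 3 regions in chromosome order spanned 11.7 kb at Ddr2, a collagen receptor gene of cartilage. Fold enrichment in the 4 larger groups ran from 2.27 to 3.83 in Utx-cKO.

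Counting regions with any base within 2 kb of a gene end, 188 regions lay at 235 of 21883 protein-coding genes (1.07%). Of these 235 genes, 108 (46.0%) also had a wild-type peak at an end, against 62.3% of all genes, and 114 (48.5%) had neither a wild-type nor an Ezh2-cKO peak there. After Pik3c3, Tmem54 and Espn, the strongest were at Insrr, an insulin receptor-related kinase gene (4.19 in Utx-cKO and 3.56 in Jmjd3-cKO), at Tcerg1l (3.48 and 3.55) and at H2-Ab1, an MHC class II chain (3.48 and 4.60). Hoxb4 (3.51 and 3.45), F11r, a tight junction protein gene (3.37 and 3.74), Eomes (3.35 and 3.67) and Dusp9 (3.35 and 3.27) followed.

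Hox genes, the homeobox genes that set position along the body axis, had the highest share of the 22 fixed gene lists. A shared region lay at an end of 7 of 39 (17.9%, 8.98 to 32.7%), against 1.07% of all genes, an interval that overlaps those of the myogenic and retinoic acid lists. These rest on 6 distinct regions, since Hoxc4 and Hoxc5 share 1, so the genes are not independent. Peaks of Utx-cKO alone lay at 2 of the 39 against 10.9% of all genes, peaks shared with Ezh2-cKO only at 0 against 3.78%, and peaks of all 3 knockouts at 2 against 2.09%. A wild-type peak at an end was present in 29 of the 39, and Hoxa2, Hoxc4, Hoxc5 and Hoxd3 were among them.

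In the Hoxb cluster, fold enrichment at Hoxb4 was 3.51 in Utx-cKO and 3.45 in Jmjd3-cKO, with the nearest wild-type peak 13713 bp away. At Hoxb5 it was 3.12 and 2.98, with a wild-type peak 4158 bp away. At Hoxb13 it was 3.22 and 3.0, with the nearest wild-type peak 69463 bp away. None of these 3 genes had a wild-type peak at an end. The Hoxb4 region, 248 bp at chr11:96318872-96319119, lay 1598 bp from the microRNA miR-10a, whose mature sequence is printed with the seed (bases 2 to 8) in capitals as the member of the microRNA table next to it.
mmu-miR-10a-5p: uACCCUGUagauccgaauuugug

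In the other clusters a wild-type peak lay within 5 kb of each region. At Hoxd3, fold enrichment was 3.34 in Utx-cKO and 2.93 in Jmjd3-cKO, past the 3′ end of the gene, with a wild-type peak 2838 bp away. At Hoxa2 it was 2.96 and 2.77, with a wild-type peak 3444 bp away. Between Hoxc5 and Hoxc4 it was 2.89 and 2.41, with a wild-type peak 2353 bp away. The Hox count depends on the treatment of such neighbours and of weak peaks: with no wild-type or Ezh2-cKO peak allowed within 5 kb it was 2 (Hoxb4 and Hoxb13) against 0.580% of all genes, and with fold enrichment of at least 3 in both knockouts it was 1 (Hoxb4) against 0.119%. With a window of 5 kb it was 11 against 2.06%.

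**Figure D4:**
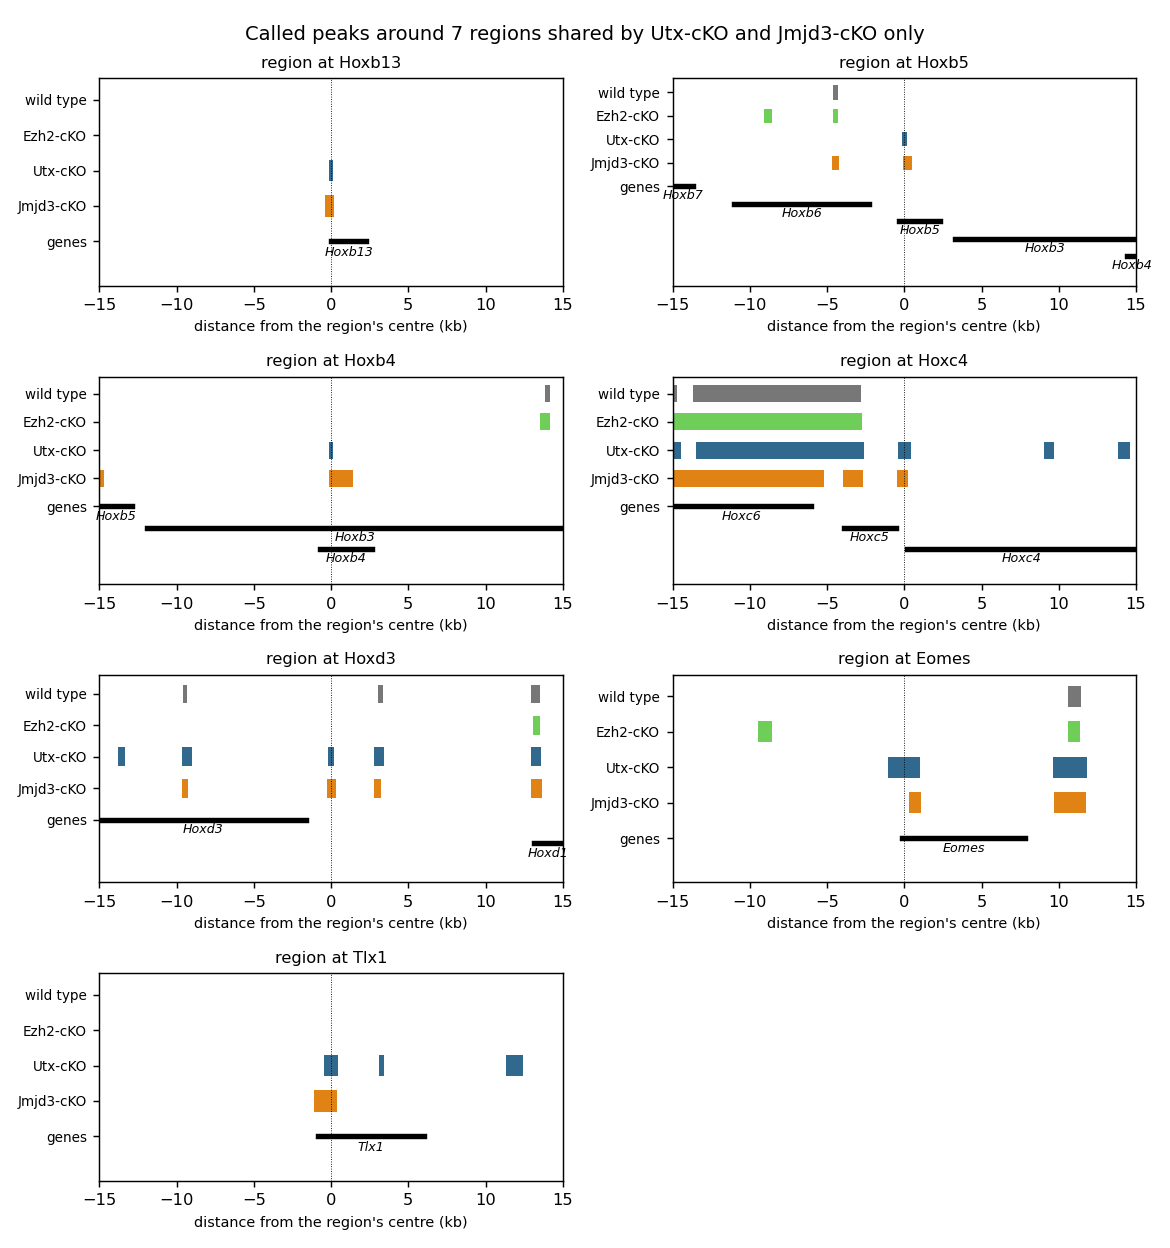
Called peaks of the 4 lists (coloured bars) and protein-coding genes (black bars) within 15 kb of the centre of 7 shared regions, with distance from the centre in kb on the x axis. Bars show where a peak was called, not its height; no wild-type or Ezh2-cKO bar lies at the centre, and around Hoxb13 and Tlx1 no wild-type or Ezh2-cKO peak lies in the window.

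Transcription factors of other lineages followed, with a shared region at an end of 8 of 89 genes (8.99%, 4.63 to 16.7%), against 1.07% of all genes. Each of the 8 had its own region. At Tlx1, fold enrichment was 4.49 in Utx-cKO and 2.95 in Jmjd3-cKO, with the region centre 226 bp past the transcription start and the nearest wild-type peak 25787 bp away. At Eomes it was 3.35 and 3.67. Cdx2, a factor of the intestine and trophoblast, had 3.11 and 2.41 at its far end, 7550 bp past the start. Pou4f1, Sox2, Gsx1 and Pax3, factors of sensory neurons, neural progenitors, the ventral forebrain and early muscle, had between 2.68 and 2.82 in Utx-cKO and between 2.59 and 4.02 in Jmjd3-cKO. Of the 8 genes, Pou4f1 alone had a wild-type peak at an end. The value of 4.02 is that of Pou4f1, whose Jmjd3-cKO peak also overlapped a wild-type or Ezh2-cKO peak. Without such Jmjd3-cKO peaks the count was 7, against 1.06% of all genes. The count of 8 was 2 with −log10 q of at least 3 in both knockouts, against 0.183% of all genes, 1 with fold enrichment of at least 3 there, against 0.119%, and 5 with that q minimum in all lists, against 0.951%. Of these 5, Eomes and Tlx1 were among the 8, while Neurog2, Dbx1 and Six6 were not. With a window of 5 kb it was 13, against 2.06%. This list was also high among peaks of Utx-cKO alone, at 22 of 89 against 10.9% of all genes, with 8 against 3.78% for peaks shared with Ezh2-cKO only and 8 against 2.09% for those in all 3 knockouts.

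Retinoic acid genes had a shared region at an end of 3 of 19 (15.8%, 5.52 to 37.6%), against the same 1.07% of all genes. With fold enrichment of at least 3 in both knockouts, or −log10 q of at least 3 there, the count was 1, against 0.119% and 0.183% of all genes, and with a window of 5 kb it was 6, against 2.06%. They were Crabp1, with 3.18 in Utx-cKO and 3.90 in Jmjd3-cKO, plus the genes of enzymes that break down retinoic acid, Cyp26b1 (3.0 and 2.58) and Cyp26c1 (3.28 and 2.64). The region was centred 580 bp past the start of Crabp1, but at the far end of Cyp26b1 and Cyp26c1, 23664 and 7399 bp past their starts. None of these 3 had a wild-type peak at an end. Peaks of all 3 knockouts lay at 4 of the 19 retinoic acid genes, against 2.09% of all genes. Peaks of Utx-cKO alone lay at 3 against 10.9%, and those shared with Ezh2-cKO only at 0 against 3.78%. Among the myogenic genes there were 3 of 18 (16.7%, 5.84 to 39.2%), against 1.07%: the sarcomere gene Actn2 (3.87 and 2.62), the myoblast fusion gene Mymx (3.0 and 2.91) and Pax3, also counted among transcription factors of other lineages. The myogenic count was 0 with −log10 q of at least 3, in both knockouts or in all lists, and with fold enrichment of at least 3 in both knockouts. Peaks of Utx-cKO alone lay at 6 of the 18 against 10.9% of all genes. Against the same 1.07%, the other lists with any were ion channels and synapse, 2 of 40 (Kcnn4, 2.90 and 4.17, and the sodium channel gene Scn3a, 2.71 and 3.10), haematopoietic, 1 of 24 (Gfi1, 2.90 and 2.61), and hypertrophy and osteogenesis, 1 of 28 (Mef2d, 3.21 and 3.01, at its far end). The ion channel count was 0 with equally long lists and with either minimum of 3 in both knockouts, but 3 with the q minimum in all lists, against 0.951%. Those 3 were Kcnj6, Kcnq3 and Syt1, so neither Kcnn4 nor Scn3a was among them.

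No shared region lay at an end of any of the 30 genes of chondrocyte matrix and regulators, with a 95% Wilson interval of 0 to 11.4%, nor of the 34 Wnt, 40 TGF-beta and BMP, 17 Hedgehog or 27 FGF genes. The same held for matrix degradation and inflammation, endothelial, adipogenic, tendon, cell cycle, PRC2 and demethylase, housekeeping, axon guidance, epithelial and germline lists. At a background of 1.07%, lists of this size would hold few such genes, so these counts of 0 do not set the lists apart. Some also depend on the setting. The chondrocyte count was 2 (Runx1 and Pax9) with −log10 q of at least 3 in all lists, against 0.951% of all genes. It was 1 (Snorc) from the Jmjd3-cKO side, against 1.24%, 1 (Cytl1) with a window of 5 kb, against 2.06%, and 0 otherwise. The Wnt, FGF, endothelial and axon guidance counts, among others, also left 0 under some settings.

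**Figure D5:**
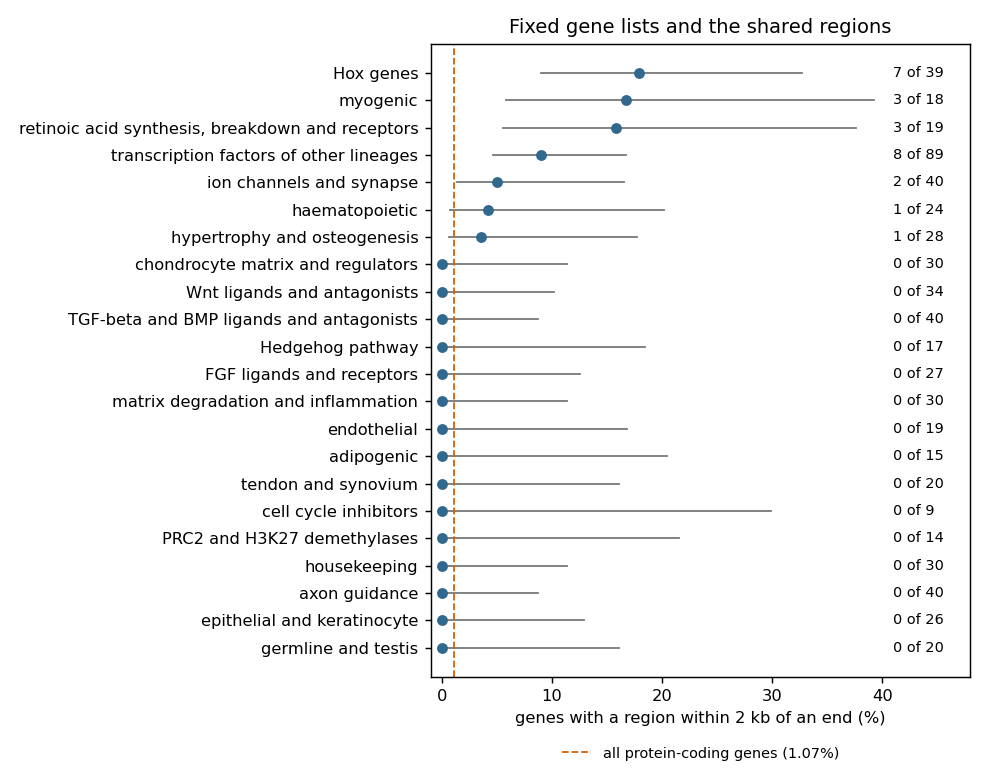
Share of each of the 22 gene lists with a shared region within 2 kb of a gene end (points, with 95% Wilson intervals as lines) and the count at the right. The dashed line is the share over all protein-coding genes (1.07%). Hox, myogenic, retinoic acid and other-lineage transcription factor lists lie to its right with their whole interval, as does the ion channel list. These are counts at the main setting, and the myogenic and ion channel counts were 0 under some stricter ones.

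Counted over any part of a gene in place of its ends, regions lay over 885 genes (4.04%). Hedgehog pathway genes had a region over 6 of 17 (35.3%), with a median gene length of 25.9 kb over the whole list. They were the receptor gene Ptch1 (2 regions, Utx-cKO fold enrichment 2.75 and 2.76), the transducer Smo (2.47), the transcription factor Gli2 (2.98), the ligand release gene Disp1 (2 regions, 3.30 and 2.54) and the co-receptors Cdon (2.92) and Boc (2.63). All 6 had a wild-type peak at an end. Ptch1, Gli2, Disp1, Cdon and Boc are longer than the list's median. A long gene offers more room for a region, and gene length was not matched in these counts. In Jmjd3-cKO the same regions ran from 2.41 to 2.98, so all were weak there too.

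Of the chondrocyte list, 3 of 30 (10.0%) held a region inside the gene, against 4.04% of all genes. The median gene length was 23.8 kb over the whole list and 17.2 kb over all genes. The 3 were Sox6 (2.61 in Utx-cKO and 2.68 in Jmjd3-cKO), a cofactor of Sox9, Trps1 (2.70 and 2.83), a repressor of hypertrophy, and Runx1 (2.95 and 3.0). All 3 are longer than the list's median. FGF genes had 3 of 27 (11.1%), also against 4.04%, with a median gene length of 15.3 kb over the whole list, shorter than each of the 3. They were the ligand gene Fgf2 (3.02 and 2.30) and the receptor genes Fgfr1, with 2 regions (2.92 and 2.58, 2.96 and 2.87), and Fgfr2 (2.26 and 2.82). The Fgfr2 region had the lowest fold enrichment in Utx-cKO of all members and lay 73 bp from a wild-type peak. At Cdkn2a, the region at chr4:89281996-89282559 had 3.31 in Utx-cKO and 2.87 in Jmjd3-cKO. Its centre lay 86 bp upstream of the internal start whose promoter is printed above, and the nearest wild-type peak was 11571 bp away, while Cdkn2a had a wild-type peak at an end.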

How the data were processed

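Mouse chondrocytes of 4 genotypes, with 1 H3K27me3 ChIP and 1 input library each, were compared through the 4 deposited peak lists. Broad peaks were called by the authors with MACS 2.1.2, per the file headers, on each ChIP library against its own input at a q of 0.05. The submitters' processing notes name Bowtie2, MACS2, ChIPseeker, deepTools 2.4.1, HOMER 4.10 and FastQC 0.11.5. A genome build or a Bowtie2 version is not given in the sources used here. The deposited lists give the authors' pileup as a coverage signal (not used), −log10 p and −log10 q, fold enrichment as a ratio over local input, and length.

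Overlaps and counts were computed with Python 3.11.15, numpy 2.4.6 and pandas 2.3.3, Wilson intervals with scipy 1.17.1 and plots with matplotlib 3.10.9. Overlap meant at least 1 bp. Genes and promoters came from RefSeq (GRCm38.p6): wild-type peaks overlapped 43.1% of 32851 promoters in place, and 3.66% and 3.70% of them after a shift of 20 kb in either direction. The tables hold no genome sequence, and promoters of chromosome 18 were not used here, so promoter shares are over the other chromosomes. The gene table has no strand or exons, so both gene ends count, and exons and introns were not told apart. On simulated data the rule recovered 304 of 304 planted regions among 2000 with 0 false, and the gene-end step 200 of 200 planted genes among 21883.

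The members and the 22 gene lists were chosen with earlier results of these data known, so counts are descriptions. Named are the 10 regions with the highest lower fold enrichment of both knockouts, the 10 longest, the 10 strongest at gene ends, the 5 densest stretches of 100 kb (ties in chromosome order), and up to 4 genes per list with a region at an end. Further list genes, and the promoters printed, were named after their values were seen. Some genes that the rule names are left out of the text. Alternatives were stricter q or fold enrichment, equally long lists, other overlap, distance, merging and window settings, chromosomes 1 to 19, and the rule taken from the Jmjd3-cKO side.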

Additional observations from a re-analysis of the deposited data

How the results depend on the processing

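No paired analysis was possible because each genotype has 1 ChIP library, and for the same reason no replicate could be left out. The number of regions, 1550, was 174 with −log10 q of at least 3 in Utx-cKO and Jmjd3-cKO, 865 with that minimum in all lists (174 of the 1550 overlapped one of these), 861 with equally long lists (599 of the 1550 overlapped), 139 with fold enrichment of at least 3 in both knockouts, and 948 with no wild-type or Ezh2-cKO peak within 5 kb. Limits on Utx-cKO and Jmjd3-cKO alone, and the 5 kb distance, can only remove regions by construction. Leaving out Jmjd3-cKO peaks that overlap a wild-type or Ezh2-cKO peak, a choice made after seeing the data, gave 1476. The count of genes with a region at an end, 235, was 40, 26 and 127 under −log10 q of at least 3 in Utx-cKO and Jmjd3-cKO, fold enrichment of at least 3, and the 5 kb distance, 451 with a 5 kb window and 885 over the gene. The share at a gene end, 10.5%, was 19% and 19.1% under the q minimum in Utx-cKO and Jmjd3-cKO and in all lists, 15% with equally long lists, 15.1% with fold enrichment of at least 3, and 7.81% and 21.4% with windows of 1 and 5 kb. Median fold enrichment, 2.85, was 3.23 and 3.31 under the q minima, 3.18 with equally long lists, 3.23 with fold enrichment of at least 3, and 2.71 from the Jmjd3-cKO side. Median length, 651 bp, was 571.5 and 934 bp under the q minima, 736 bp with equally long lists, 530 bp with fold enrichment of at least 3, 617 bp with the 5 kb distance and 447 bp from the Jmjd3-cKO side. The list genes with a region at an end, 24 in all, were 7 under the q minimum in Utx-cKO and Jmjd3-cKO, 4 with fold enrichment of at least 3, 13 with the 5 kb distance and 46 with the 5 kb window. The Hox count of 7 was 3 (Hoxb4, Hoxb5 and Hoxd3) under either q minimum, against 0.183% and 0.951% of all genes, 4 with equally long lists, against 0.887%, 3 with peaks within 3 kb merged, against 0.736%, and 11 with the 5 kb window, against 2.06%. Where not stated, the cause of a change was not tested.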

Other observations

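Across chromosomes, the share of Utx-cKO peaks that were shared with Jmjd3-cKO only was lowest on chromosome 14, at 29 of 1685 (1.72%, 1.20 to 2.46%), and highest among the autosomes on chromosome 16, at 66 of 1573 (4.20%, 3.31 to 5.30%). On the X chromosome it was 13 of 664 (1.96%, 1.15 to 3.32%). Large gene families of sensory receptors carried no shared region at a gene end: 0 of 1110 olfactory receptor genes named Olfr and 0 of 355 vomeronasal receptor genes named Vmn. Among zinc finger genes named Zfp it was 1 of 397, Zfp853, against 1.07% of all genes.

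Of 6 motifs searched on both strands of the 103 promoters, TGACTCA, which AP-1 factors bind, was present in 12 (11.7%, 6.79 to 19.3%), against 5.20% of all 32851 promoters. The share was 7.16% (5.21 to 9.75%) under peaks of Utx-cKO alone, 6.64% (4.13 to 10.5%) with Ezh2-cKO only and 5.13% (2.96 to 8.75%) under peaks of all 3 knockouts. The members' interval overlapped each of these intervals. Overlapping windows of 1 region can also count the same site more than once, as at Tmem54. For the other motifs, the share of all promoters lay inside the members' 95% Wilson interval: TATAAA (12.6% of the 103 against 13.6% of all), CCAAT (29.1% against 37.4%), CCGCCC (41.7% against 35.7%), CACGTG (10.7% against 7.15%) and TGACGTCA (1.94% against 1.79%). None of these motifs contains another, and a match is a description of sequence only. Among microRNA genes, Mir6347, Mir6415 and Mir7053 lay inside a shared region.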
